A study of Homo sapiens with 2 samples.

Results

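The antiviral effectors examined here were the 10 genes MX1, MX2, RSAD2, BST2, RTP4, EIF2AK2, SAMD9, SAMD9L, PLSCR1 and XAF1. They were chosen by name, as every non-control probe whose gene name was 1 of these 10, out of 43317 gene names on the array. The 10 genes had 16 probes, and 8 of the genes were well above background on both arrays, among 20246 such genes in all. RNA came from Ca9-22, an established oral squamous cell carcinoma (OSCC) cell line. In the DLEU1 vector group the cells carried full-length cDNA of the long noncoding RNA DLEU1, amplified from KON cells, in the lentiviral vector pLenti6/V5-DEST, and in the control vector group they carried the empty vector. Both groups were grown in RPMI-1640 with 10% serum and selected as infected cultures for 2 weeks with blasticidin, whose labelled concentration was 6 mg/ml. Each group had 1 Agilent 1-colour array, hybridised with Cy3-labelled cRNA made from 100 ng of RNA. The comparison asked which of these genes differed in level between cells with added DLEU1 and control cells. With 1 array per group there were no replicates, so no test or p-value is given, and the small number of arrays sets the limit on precision.

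Type I interferons bind the receptor pair IFNAR1 and IFNAR2, and the kinases JAK1 and TYK2 then activate a transcription factor complex that holds STAT2 and IRF9, enters the nucleus and binds the interferon-stimulated response element (ISRE) of target promoters. The products of these interferon-stimulated genes (ISGs) block different steps of a viral life cycle, from entry over genome replication and translation to release. In epithelial tumours many of them are also transcribed without infection.

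The promoters of the effectors are shown first, because the core letters of the response element were found in members with and without a higher array signal. RefSeq windows from 250 bases before to 50 bases after a start site (GRCh38.p14) were found for 9 of the 10 genes, 14 windows in all, and MX2 was not among the matches. The ISRE core GAAANNGAAA, searched on both strands, was found in 9 of these windows, belonging to 7 genes. In all promoter windows of this length it was found in 1255 of 35116 (3.57%), and in those of the other ISGs in 36 of 71 (50.7%). The windows of SAMD9L and XAF1 did not hold these letters. Stretches around the matches are printed in the direction of transcription, with the matched letters in capitals (in RSAD2 the match is on the opposite strand and so reads TTTCAGTTTC). The stretches lie at chr2:6877572-6877701 (RSAD2, plus strand), chr19:17405685-17405820 (BST2, minus strand), chr3:187368283-187368384 (RTP4, plus strand), chr7:93118046-93118175 (SAMD9, minus strand), chr2:37156977-37157046 (EIF2AK2, minus strand) and chr3:146544617-146544746 (PLSCR1, minus strand).
RSAD2: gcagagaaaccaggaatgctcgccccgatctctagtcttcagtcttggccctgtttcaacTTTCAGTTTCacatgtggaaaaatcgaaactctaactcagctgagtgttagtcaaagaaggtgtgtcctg
BST2: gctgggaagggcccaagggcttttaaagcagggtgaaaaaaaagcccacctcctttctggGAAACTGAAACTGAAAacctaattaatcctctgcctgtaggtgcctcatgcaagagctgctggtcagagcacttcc
RTP4: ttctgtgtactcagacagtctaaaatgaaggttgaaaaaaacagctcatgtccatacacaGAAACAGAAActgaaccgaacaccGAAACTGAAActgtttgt
SAMD9: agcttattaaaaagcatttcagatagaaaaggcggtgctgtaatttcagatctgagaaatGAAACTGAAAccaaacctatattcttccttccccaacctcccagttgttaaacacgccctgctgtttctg
EIF2AK2: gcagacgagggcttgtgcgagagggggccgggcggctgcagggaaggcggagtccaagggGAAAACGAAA
PLSCR1: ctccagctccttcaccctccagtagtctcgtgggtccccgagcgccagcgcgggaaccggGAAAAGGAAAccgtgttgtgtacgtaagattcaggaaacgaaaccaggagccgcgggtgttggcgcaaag

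RTP4 and BST2 each held 2 matches, which in BST2 overlap. Counted from the start site, they began at -42 and -18 in RTP4 and at -130 and -124 in BST2. The single matches of SAMD9 and RSAD2 began at -136 and -145. The matches of EIF2AK2 and PLSCR1, whose array signals were lower with the DLEU1 vector, began at -6 in EIF2AK2 and at -91 or -79 in PLSCR1, depending on which annotated start is counted from. MX1 had 3 windows, with a match at 12 in one, a reverse-strand match at -196 in another, and none in the window between them. The letters TTCNNNGAA, the core of the gamma-activated site (GAS) of interferon-responsive promoters, were found in windows of BST2, MX1 and PLSCR1, and in 2689 of all 35116 windows (7.66%). The GAS matches at -136 in BST2 and at -189 in MX1 overlap their ISRE matches. A match of letters is a description of the sequence and was not tested as a binding site.

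**Figure D1:**
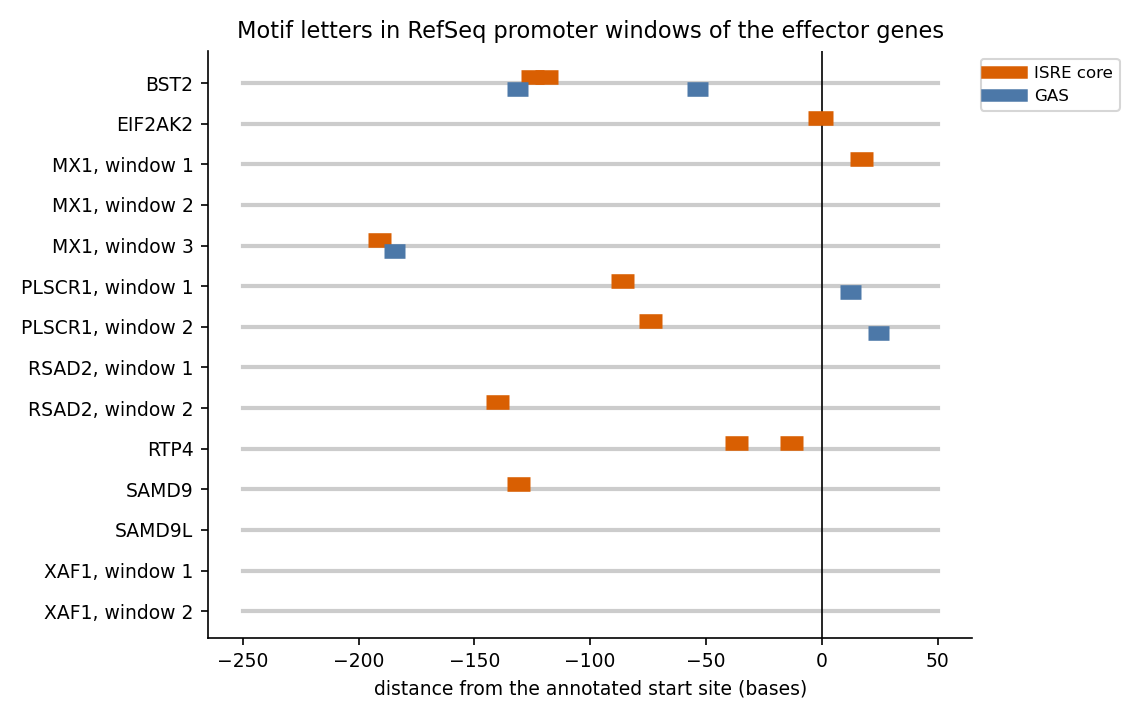
Positions of ISRE core and GAS matches in the 14 promoter windows of 9 effectors. The horizontal axis gives bases from the annotated start site, each line is 1 window, orange blocks above the line cover ISRE core matches and blue blocks below it cover GAS matches. SAMD9L and XAF1 had no match, while RTP4 and BST2 each had 2 ISRE matches.

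Among the 8 effectors well above background on both arrays, 3 were at least 2-fold higher with the DLEU1 vector, namely RTP4, SAMD9 and BST2. This was 37.5% of the 8, beside 9.18% of all genes and 7.46% of the 67 other type I ISGs measured in the same way. Members and lists were chosen with earlier results of these data known, so these shares are a description only. None (0 of 8) was at least 2-fold lower, beside 9.78% of all genes. SAMD9L and MX1 were higher by less than 2-fold, EIF2AK2 and PLSCR1 were lower by less than 2-fold, and MX2 had 2 probes that differed in sign. RSAD2 was well above background with the DLEU1 vector only, and XAF1 on neither array. The median log2 difference (DLEU1 vector minus control vector) over the 8 genes, with MX2 at its brighter probe, was 0.49, beside -0.07 over all genes. Fewer cells expressing a gene and less RNA of it per cell cannot be told apart in such bulk samples.

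**Figure D2:**
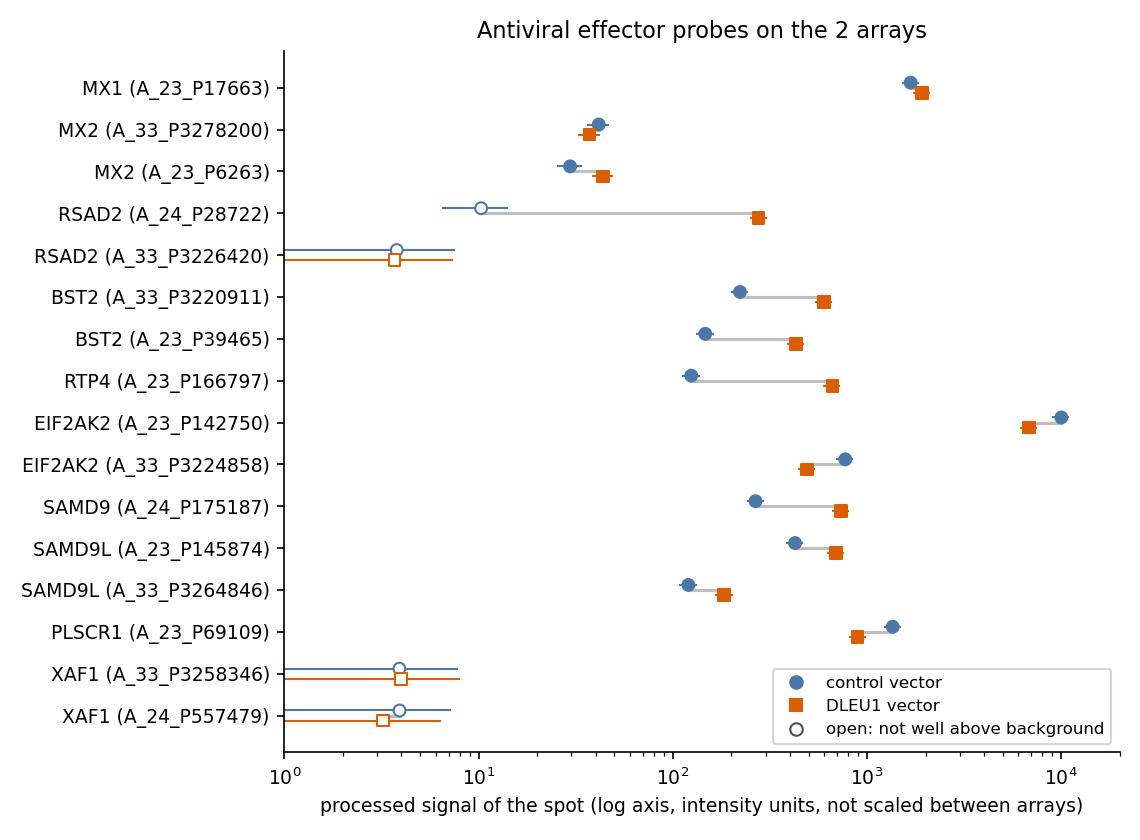
Processed signal of each effector probe on both arrays, without and with added DLEU1 (logarithmic axis, arbitrary intensity units). Circles (control vector) and squares (DLEU1 vector) are single spots, bars give the error estimate of the scanner software and run off the axis for the dimmest probes, and open points were not well above background. RSAD2 goes from 10.3 to 276 and RTP4 from 124 to 663, while both XAF1 probes stay near 4, about the size of their errors.

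The values below are processed signals with the error that the scanner software estimated for that spot (±), followed by the log2 level after scaling of each array. Probe signals cannot be ranked between genes, because probes differ in how strongly they bind. From probes printed several times, the SD of a log2 difference between the arrays was 0.058 for signals of 1000 and over (215 probes), 0.099 for 100 to 1000 (62 probes) and 0.31 under 100 (5 probes). This spot SD holds technical spread only, not that between cultures. All 16 effector probes had a single spot. Positions of probes are those of the files, in hg19, and the exon or UTR that each probe lies in was not analysed here.

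RSAD2 encodes viperin, a radical SAM enzyme that converts CTP into a chain terminator of viral RNA polymerases. Its probe A_24_P28722 (NM_080657, chr2:7037200-7037259, plus strand) had a signal of 10.3 ± 3.81 with the control vector, against 276 ± 27.8 in the cells with DLEU1. The first was not well above background, with a raw spot mean of 43.0 over a background of 33.7, and the second stood at 293 over 34.2. Against the higher of the control signal and the lowest detected signal of that array, RSAD2 was at least 19.95-fold higher with the DLEU1 vector in the main setting (log2 bound 4.32). This does not include the errors of the spots, and the lowest detected signal is not a detection limit of this spot. That bound ranked 27th from the highest among 1242 genes detected with the DLEU1 vector only, of which 35.3% had a bound of at least 2-fold. All 1242 had a bound above 0, because detection on that array only fixes the direction, so the rank describes size alone. The size of the bound depended on the background correction, and with normexp it was 2.12 on the log2 scale. The other RSAD2 probe, A_33_P3226420 (ENST00000474872, chr2:7017216-7017275), read 3.79 ± 3.80 and 3.69 ± 3.71 and was well above background on neither array. CMPK2, the nucleotide kinase gene beside RSAD2, was not well above background on either array.

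BST2, or tetherin, holds budding enveloped virions at the cell surface. Its brighter probe A_33_P3220911 (chr19:17513748-17513807, minus strand) went from 222 ± 22.4 with the control vector to 602 ± 60.3 with the DLEU1 vector, a log2 difference of 1.48 or 2.79-fold. The other probe, A_23_P39465 (chr19:17514054-17514113), went from 147 ± 15.1 to 429 ± 43.1, a log2 difference of 1.58. The differences of the 2 probes lay 0.11 apart, against a median SD between probes of a gene of 0.23 over 4674 genes. Both probes of BST2 lay beyond 2-fold and above the spot SD of 0.099 and the software error of 0.21. The difference of BST2 ranked 897th from the highest of 20246 genes.

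RTP4, a receptor transporter protein induced by interferon, restricts flaviviruses. Its probe A_23_P166797 (chr3:187089255-187089314, plus strand) read 124 ± 12.97 in control cells and 663 ± 66.4 with the DLEU1 vector. The log2 level went from -0.96 to 1.49, which is 5.47-fold, and the difference of 2.45 ranked 235th of 20246 genes. Among 75 type I ISGs, effectors included, that were measured on both arrays, only TNFSF10 had a higher one, at 3.69. TNFSF10 encodes TRAIL, a death receptor ligand.

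SAMD9 and SAMD9L are neighbouring genes on chromosome 7 that encode related cytoplasmic proteins, which restrict poxviruses and reduce protein synthesis and cell growth. The SAMD9 probe A_24_P175187 (chr7:92729782-92729841, minus strand) went from 267 ± 26.9 with the control vector to 732 ± 73.3 with the DLEU1 vector, 2.82-fold. The SAMD9L probe A_23_P145874 (chr7:92760219-92760278) went from 426 ± 42.7 to 694 ± 69.5, 1.67-fold, and the dimmer A_33_P3264846 (chr7:92760590-92760649) from 120 ± 12.4 to 184 ± 18.7. On the log2 scale SAMD9 was higher by 1.495 and SAMD9L by 0.74, or 0.65 on its other probe. The difference between SAMD9 and SAMD9L was 0.75, against a spot SD of 0.14 and a software error of 0.29. The probes of the pair lie 30378 bases apart.

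The MX genes are also a pair, on chromosome 21, and encode dynamin-like GTPases. MX1 acts against influenza and other RNA viruses, and MX2 against retroviruses and herpesviruses. The MX1 probe A_23_P17663 (NM_002462, chr21:42831014-42831073, plus strand) read 1677 ± 168 in control cells and 1922 ± 192 with the DLEU1 vector, a log2 difference of 0.23. This is above the spot SD of 0.058 but close to the software error of 0.20, and with the arrays scaled to the spike-in probes it turned to -0.22. MX2 was dim on both arrays. Its probe A_33_P3278200 (ENST00000495892, chr21:42735919-42735978) read 41.6 ± 5.61 and 37.3 ± 4.90, a difference of -0.12, while A_23_P6263 (NM_002463, chr21:42780501-42780560) read 29.6 ± 4.38 and 43.6 ± 5.41, a difference of 0.60. The 2 MX2 probes disagreed in sign, by 0.72, each with a spot SD of 0.31, so no direction can be given for MX2.

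EIF2AK2 encodes PKR, the kinase that binds double-stranded RNA and phosphorylates the translation factor eIF2 alpha. It had the brightest effector probe, and it was lower with the DLEU1 vector on both probes. Probe A_23_P142750 (NM_002759, chr2:37336386-37341880, minus strand, a span of 5495 bases that crosses a splice junction) read 10010 ± 1001 and 6840 ± 684, a log2 difference of -0.51. Probe A_33_P3224858 (NM_001135652, chr2:37368778-37368837) read 773 ± 77.4 and 489 ± 49.1, a difference of -0.62. Neither passed 2-fold, and the pair lay 0.11 apart.

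PLSCR1, phospholipid scramblase, is a membrane protein that limits viral entry. Its probe A_23_P69109 (chr3:146233062-146233121, minus strand) read 1356 ± 136 in control cells and 892 ± 89.3 with the DLEU1 vector. This is 1.48-fold lower (log2 difference -0.57), against a spot SD of 0.058 and a software error of 0.20. XAF1 binds the apoptosis inhibitor XIAP and counters it. Its probes A_33_P3258346 (chr17:6674143-6674202) and A_24_P557479 (chr17:6678819-6678878) read 3.91 ± 3.92 and 3.92 ± 3.25 on the control vector array, against 3.99 ± 4.005 and 3.21 ± 3.22 on the other array. These signals were about the size of their errors, so no difference can be given. Its partner XIAP was higher by 0.88 on its brighter probe.

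**Figure D3:**
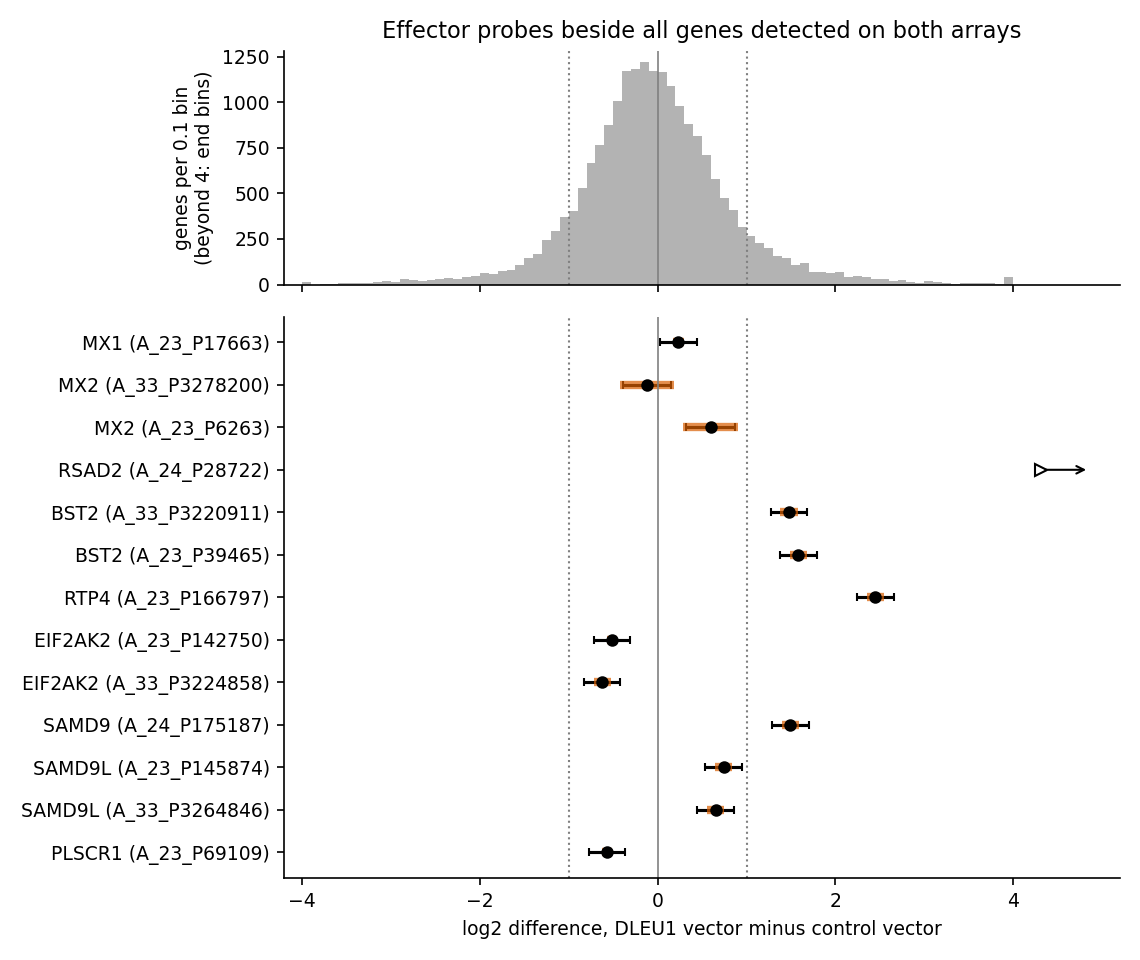
Log2 difference (DLEU1 vector minus control vector) of each effector probe, with a histogram of all 20246 genes detected on both arrays above it. Each point is 1 probe, thin capped bars give the software error, thick orange bars the spot SD, and dotted lines mark 2-fold. RSAD2 is drawn as an arrow from its lower bound of 4.32 in the main setting, which was 2.12 with normexp background. RTP4, SAMD9 and both BST2 probes lie beyond the upper line, and the 2 MX2 probes lie on opposite sides of 0.

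The values of these genes were recomputed under other processing choices. BST2, RTP4 and SAMD9 were at least 2-fold higher in 15 of 15 other settings that kept the 2-fold threshold, over ranges of 1.03 to 1.59, 1.98 to 2.56 and 1.04 to 1.61. Not all of these settings could move them. Leaving out saturated spots, dropping the filter on dim probes and requiring a signal of 100 gave their main values again. So did the mean of probes for RTP4 and SAMD9, which had 1 probe each. Median scaling, detected probes, no scaling, spike-in scaling, kept outliers and removal of the strip shifted all effectors alike. The series values were almost the same intensities. The settings are therefore not separate tests of these genes. SAMD9L stayed between 0.29 and 0.85, under 2-fold in each. EIF2AK2 stayed between -0.96 and -0.26, and PLSCR1 between -1.02 and -0.45, past 2-fold only when the arrays were scaled to the spike-in probes. That scaling moved the median of all genes from -0.07 to -0.52.

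**Figure D4:**
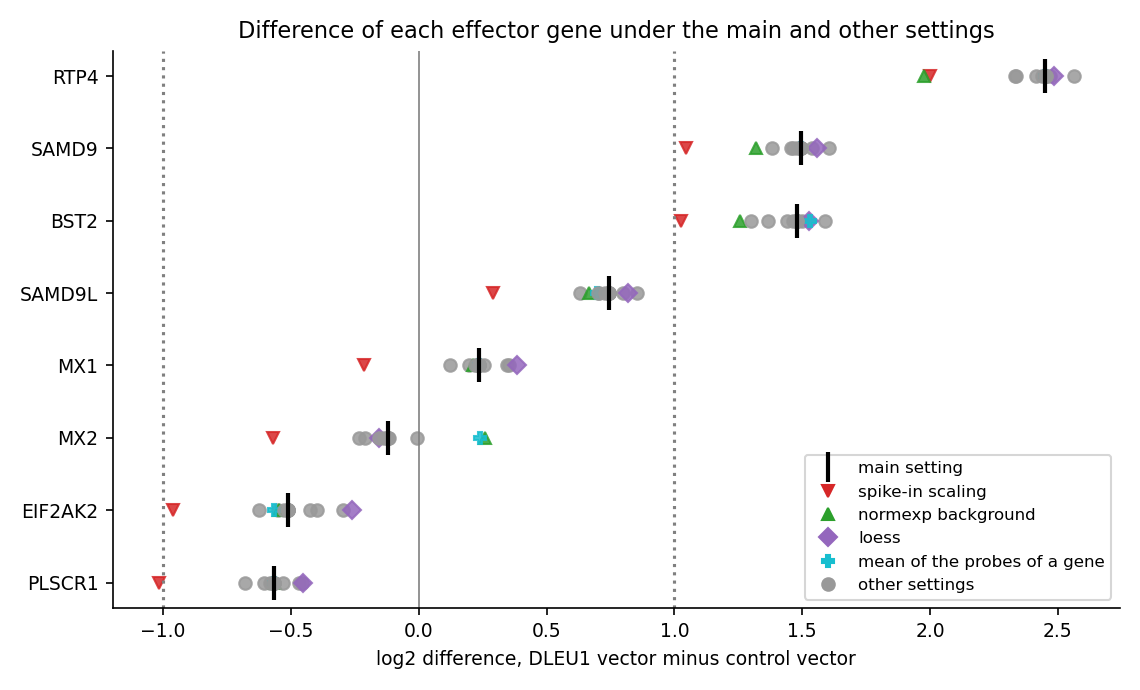
Log2 difference of each effector under the main setting (black line) and under other processing choices (symbols, with spike-in scaling, normexp, loess and the mean of probes in colour and the others in grey), with dotted lines at 2-fold. RTP4, SAMD9 and BST2 lie above the upper line in 15 of 15 settings that kept this threshold, some of which left their values unchanged or shifted all effectors alike. MX1 changes sign with spike-in scaling, and MX2 with normexp background and with the mean of its probes.

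The remaining interferon genes were compared with the effectors. Of 68 other type I ISGs, 67 were detected on both arrays, and 39 of these were higher and 28 lower with the DLEU1 vector. At least 2-fold higher were 5 of them, TNFSF10, STAT2 (1.94), IFITM1 (1.53), TMEM140 (1.47) and IRF1 (1.02), and 7 were at least 2-fold lower, beside 9.78% of all genes, with ZNFX1, an RNA helicase, lowest at -1.94. IRF1 was under 2-fold in 5 other settings, between 0.57 with spike-in scaling and 0.99 with the nearest 100 spots taken off. Their median difference was 0.14, beside 0.49 for the effectors. Within the 75 genes, SAMD9, BST2 and SAMD9L ranked 5th, 6th and 13th from the highest, MX1 30th, MX2 51st, EIF2AK2 62nd and PLSCR1 63rd, so that the effectors were spread over much of the order.

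Upstream of the effectors, all 20 signalling genes of the list were detected on both arrays, 12 higher and 8 lower. Of these 4 were at least 2-fold higher, STAT2, PIAS1 (1.51), PTPN6 (1.23) and IRF1, the last of them under 2-fold in the 5 settings just given, and 0 were at least 2-fold lower. The shares over all genes were 9.18% and 9.78%. Values of PIAS1 and PTPN6 under other settings are not given here. Of STAT2 and IRF9, which act together at the ISRE, STAT2 had a difference of 1.94. IRF9 was at 0.79 on its brighter probe and at -0.20 on the dimmer one, and the mean of its probes was 0.29. The receptor subunits were at -0.14 for IFNAR1 and -0.44 for IFNAR2, and the kinases at 0.76 for JAK1 and -0.37 for TYK2. Of the transcription factors that act on interferon genes, IRF7 was at 0.76 and IRF3 at 0.11 on its brighter probe and -0.04 on the other. The lowest value was that of SOCS1, at -0.93.

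The genes around EIF2AK2 formed another list, which held eIF2 and eIF2B subunits, the other eIF2 kinases, phosphatase subunits, regulators of EIF2AK2 and downstream stress genes. All 20 were detected, 4 higher and 16 lower, with a median of -0.39, close to that of 13 housekeeping genes (-0.37). EIF2S1, the subunit that EIF2AK2 phosphorylates, was at -0.22, and PPP1R15A, which directs its dephosphorylation, at -0.64. The inhibitor DNAJC3 was at -0.01 and the activator PRKRA at -0.12. Past 2-fold were EIF2S3 (-1.20) and EIF2B2 (-1.15), 2 of 20 and both lower, beside 9.78% of all genes, and the highest was ADAR, an RNA-editing enzyme, at 0.22.

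**Figure D5:**
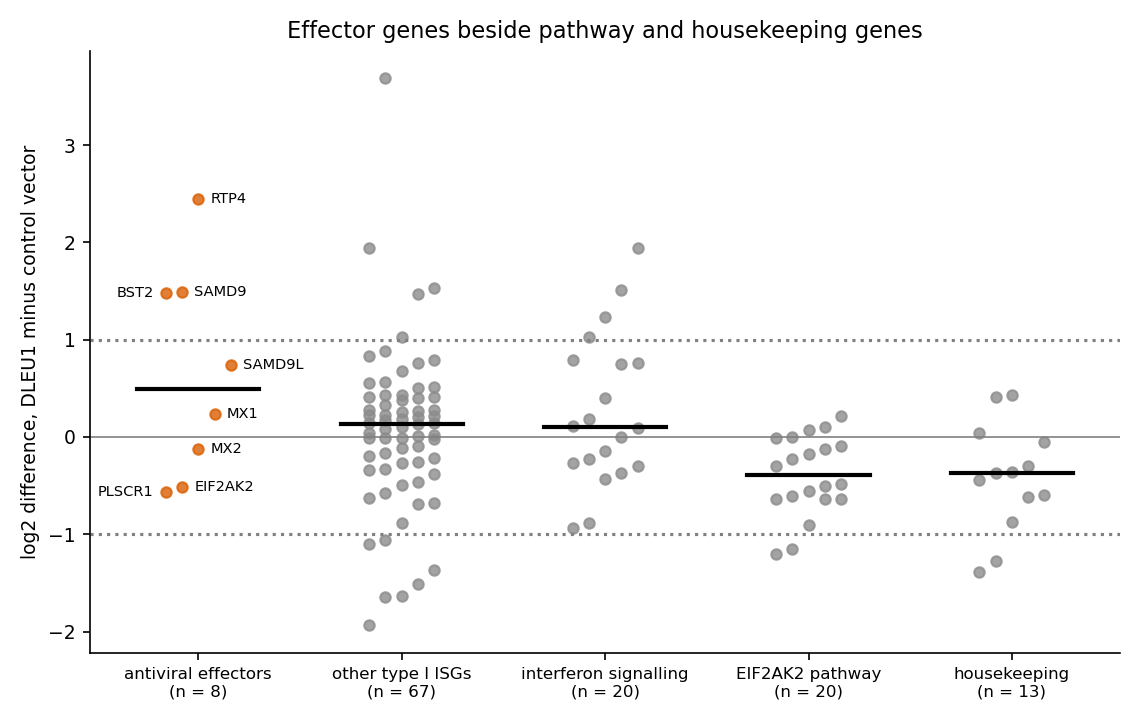
Log2 difference (DLEU1 vector minus control vector) of genes detected on both arrays, for the 8 effectors, 67 other type I ISGs, 20 interferon signalling genes, 20 genes of the EIF2AK2 pathway and 13 housekeeping genes. Each point is 1 gene, black bars are medians (0.49, 0.14, 0.10, -0.39 and -0.37) and dotted lines mark 2-fold. The spread within the ISGs reaches from -1.94 to 3.69.

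The added gene and other broad differences stood beside these values. DLEU1 itself (A_23_P151337) went from a signal of 2178 to one of 14160, 6.67-fold, while dimmer probes of other DLEU1 transcripts (NR_109974) were 1.81-fold and 1.46-fold higher. All 7 squamous epithelial markers were detected on both arrays, 6 of them higher, although SFN by only 0.0015. At least 2-fold higher were 4 (among them KRT6A at 2.91, KRT14 at 2.85 and KRT5 at 2.10), and EPCAM was at -0.78. The summed signal of the 7 markers went from 228100 to 452000. Of 20 keratinocyte differentiation genes 12 were detected on both, all of them higher and 10 at least 2-fold (summed signal of the 20 genes 25670 and 275600), and each of 20 proliferation genes was lower by 2-fold or more. Another 6 of the differentiation genes were detected with the DLEU1 vector only. The summed signal of the 6 fibroblast markers went from 375 to 5292, but without COL1A1 (3.99) from 38.5 to 74.98, and PDGFRB was at -0.33. That of the 4 endothelial markers went from 111 to 652, but without VWF (3.70) from 63.3 to 42.3, and CDH5 was at -0.59. That of the 6 leukocyte markers went from 373 to 296. COL1A2, COL3A1, LUM, DCN, PECAM1, KDR, CD3E and NKG7 were not detected on both arrays. The DLEU1 vector array also had a strip of rows and columns in which 31.4% of 729 lit spots were at least 2-fold lower, against 13.4% of 29548 elsewhere, and it held 0 of the effector probes. The part of the cell markers and of these broad differences in the effector values was not tested.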

How the data were processed

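Gene expression was measured in 2 groups of Ca9-22 cells (control vector, DLEU1 vector), 1 array each, on 1 slide in 1 scan. The authors deposited intensity values from Agilent Feature Extraction (version 10.7.3.1). Its headers state that a fitted spatial surface was subtracted as background, that signals were detrended and that surrogates replaced the values of dim spots. The series values deposited by the authors were the same intensity within 0.497%. Neither file was normalized between arrays.

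Outlier and control spots were left out. Processed signals were put on the log2 scale, spots of a probe averaged and each array's 75th percentile subtracted (7.92 control, 7.88 DLEU1). A probe was detected where most spots were well above background. A gene took the value of the brightest of its probes with detection on both arrays, and a difference was called at 2-fold. For a probe dim on 1 array the fold was set against its own signal there or, if higher, against the lowest detected signal, written as "at least". The main scaling, some of the other scalings and the 2-fold call were tested on simulated data, a copy of the control array with known shifts. Detection, the bound, normexp, spike-in scaling and shifts of dim probes were not covered by it. Python 3.11.15, numpy 2.4.6, pandas 2.3.3, R 4.3.3 and limma 3.58.1 were used. All 10 names matched current RefSeq symbols.

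Named were the 10 effectors, DLEU1, extreme genes of each list, and listed partners; others were named after their values were seen, and another listed gene is not reported here. The members and lists were chosen with earlier results of these data known. Alternatives were other scalings or none, normexp background (offset 50), series values, other filters on dim probes, the mean of probes, outlier spots kept, position on the array, and thresholds of 1.5-fold and 3-fold. The limits of the strip were chosen after seeing the data. With 1 array per group no test was run.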

Additional observations from a re-analysis of the deposited data

How the results depend on the processing

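A total of 17 alternatives were run. The count of effectors at least 2-fold higher was 3 in those that kept this threshold, with the exception of 4 without a filter on dim probes, where RSAD2 was counted, and it was 4 at 1.5-fold and 1 at 3-fold (RTP4). Of all genes, 9.77% were higher without that filter, 18.4% at 1.5-fold and 3.82% at 3-fold. The count at least 2-fold lower was 0, with the exception of 1 (PLSCR1) under spike-in scaling. With that scaling 23.5% of all genes were at least 2-fold lower and 4.63% at least 2-fold higher. The median of the effectors (0.49) became 0.38 under median scaling, 0.60 when the 75th percentile was taken over detected probes, 0.58 under quantile normalization, 0.60 under loess and 0.038 under spike-in scaling. It was 0.74 when both signals had to reach 100, where MX2 dropped out. The median of the other ISGs (0.14) was 0.025, 0.25 and 0.23 with median scaling, detected probes and loess, 0.012 with the nearest 100 spots taken off, and -0.31, a change of sign, with spike-in scaling. Scaling moved the median of all genes to -0.18 (median), 0.04 (detected probes) and -0.52 (spike-in probes). The cause of these shifts was not tested. Of 131 effector values, 12 of them bounds of RSAD2, 88 stayed within the spot SD of their main value and 43 did not. Some settings could not move an effector value, so these counts do not measure robustness. The RSAD2 bound ranged from 2.12 to 4.43 over 12 settings.

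No paired analysis was possible because each group had 1 array and the groups share only the replicate number 1. For the same reason no replicate was left out, and slide or scan as a block was not run. The setting without saturated spots tested nothing, as there were 0 of them. Signal over background limits MX2, XAF1 and the control value of RSAD2.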

Other observations

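Of 20 interferon ligand genes 17 had a probe, and 2 were detected on both arrays. IFNA4 had a log2 difference of 0.53 and IFNL2 one of -1.10, with log2 levels between -3.84 and -2.75, where the lowest detected levels of the arrays were -4.09 and -4.04. Another ligand gene was detected with the DLEU1 vector only. Of the other ISGs with a promoter window, 33 of 54 held the ISRE core in at least 1 window and 15 held the GAS letters.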
